A study of Mus musculus with 2 samples.

Results

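The cell cycle and growth arrest genes examined here are 82 probe sets for 65 genes, out of 8220 genes that 10276 of the array's 12654 probe sets name with exactly 1 symbol. They were chosen by symbol, on a list drawn up with earlier results of these data known. By prefix it took cyclins whose names start with Ccna, Ccnb, Ccnd or Ccne, Cdk plus a number, Cdkn, Mcm plus a number, E2f, Gadd45, Aurk and Plk. By full symbol it took Mki67, Pcna, Top2a, Rb1, Cdc20, Cdc25a, Bub1, Rrm1, Rrm2, Tyms, Stag2 and Btg1. No probe set here carried Tyms as its only symbol. The prefixes also took in 11 probe sets for 9 binding partners and namesakes, such as Cdk5rap3 and Ccndbp1, and these were kept as a group of their own. The RNA came from peritoneal macrophages of Pac1-/- mice and of their age-matched Pac1+/+ littermates. Pac1 is another name of Dusp2, which encodes a nuclear phosphatase of MAP kinases. Mice of both genotypes received 2 ml of 3% thioglycollate in the peritoneum 4 days before lavage, and the adherent cells, 92 to 95% Mac-1 positive per the labels, were given 100 ng/ml LPS for 6 hours. The deletion is carried by the animal and not by macrophages alone, and the labels give neither the ages nor the number of mice behind each array. There was 1 array per genotype, so no difference below has a replicate check, and values are given without p-values or errors.

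Division is driven by cyclins, which activate the cyclin-dependent kinases (CDKs), and is held back by the CDK inhibitors. Active CDKs release E2F transcription factors from the retinoblastoma protein, E2F proteins switch on the genes of DNA replication, and a later set of kinases and cohesin regulators carries the duplicated chromosomes through mitosis. Elicited peritoneal macrophages are largely non-dividing cells, and LPS is known to restrain macrophage growth. Gadd45, Btg1 and Cdkn1a are stress and growth arrest genes that many activated cells express without dividing.

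Most of these genes were close to equal on the arrays, and the exceptions lay among the mitotic genes and the Gadd45 family. Gadd45a, a stress-induced growth arrest gene, was at least 3.28-fold lower in the Pac1-/- cells. The polo-like kinase genes Plk1 and Plk4 were 2.44-fold and 2.13-fold lower, each on 1 dim probe set. The other Plk1 probe set was under the floor on both arrays, with the higher signal in the knockout. The cohesin gene Stag2 was 2.17-fold lower on its brighter probe set and 1.45-fold lower on the other. Aurkb, which encodes a kinase of chromosome segregation, was at least 2.69-fold higher. No cyclin, CDK, CDK inhibitor, E2F or replication probe set differed 2-fold. Most usable E2F and replication probe sets were too dim to do so with the floor used.

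The values are MAS5 signals in arbitrary units, which can be compared between the arrays for the same probe set but not between probe sets. Signals under 36.4, the median of all signals on both arrays, were raised to that floor, and the log2 ratio is knockout over wild type, so a value below 0 means a lower signal in the knockout. A probe set was usable when 1 or both signals exceeded the floor. With only 1 above it, the fold is a lower bound, written "at least". Of the 82 probe sets, 47 were above the floor on both arrays, 7 on 1 array and 28 on neither, so 54 were usable, for 47 genes. The floor keeps a probe set that is bright on only 1 array, so these 54 are not all members. Of the 54, 4 were 2-fold or more lower in the knockout, against 1.09% of all 5898 usable probe sets with 1 symbol. Another 1 was 2-fold or more higher, against 1.2%. In either direction the count was 5 of 54 (9.26%), against 2.29%. Such a share was not particular to these genes, since 5 of the 43 usable cell type marker probe sets (11.6%) were also 2-fold apart. The macrophage markers among them had 0 of 14, however, and the 82 usable probe sets of other cell cycle genes, described below, had 2.44%. The distance of the members from all probe sets depended on the floor. With the floor at the 25th percentile of all signals 9 of 69 members (13%) were 2-fold apart, against 12.2% of all probe sets, and with no floor and log2(signal + 16) 4 of 82 (4.88%), against 4.03%. With the floor at the 75th percentile it was 1 of 24 (4.17%), against 0.373%. Over all usable probe sets 71 were higher and 64 lower, a split that turned to 49 and 101 once both arrays were set to an equal median. Ratios of 28 members were above 0 and 26 below, with a median log2 ratio of 0.01, against 0.02 over all usable probe sets. Under 1.5-fold apart were 45 of 54 members (83.3%), against 87.6% of all usable probe sets.

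**Figure D1:**
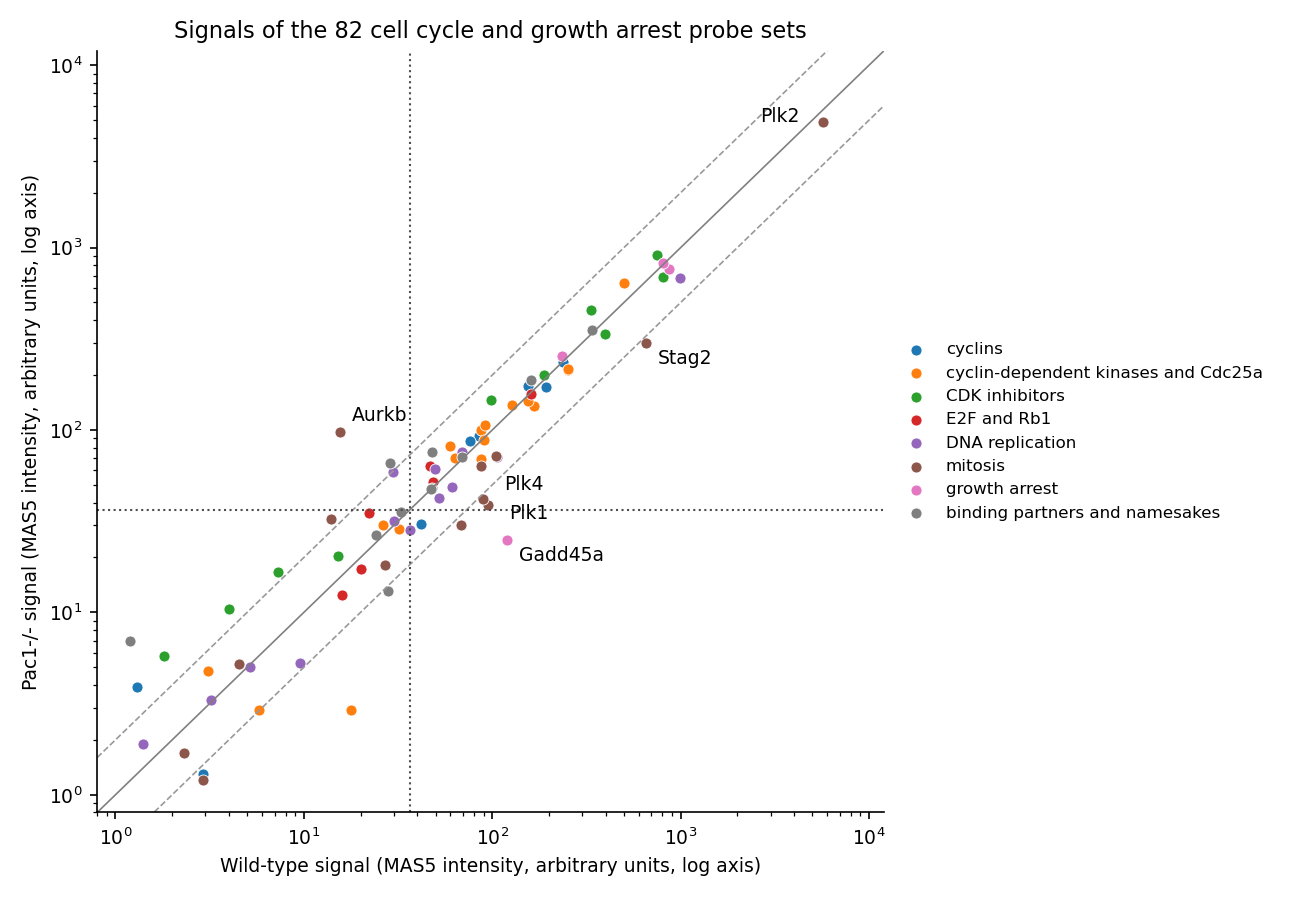
Signals of the 82 probe sets on the Pac1-/- array (vertical) against the wild-type array (horizontal), both as MAS5 intensity in arbitrary units on log axes, coloured by role. The solid line marks equal signals, dashed lines 2-fold differences and dotted lines the floor of 36.4. Plk1, Plk4, Stag2 and Gadd45a lie below the lower dashed line and Aurkb above the upper one, while Mki67 and 1 Cdk5rap3 probe set also lie beyond the dashed lines but came under 2-fold once their dimmer signal was raised to the floor. Other points beyond those lines are below the floor on both arrays.

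How often a probe set differed 2-fold depended on its signal, in part because of the floor. Where the brighter signal was under 100, 2.7% of all usable probe sets were 2-fold apart, against 3 of 26 members (Plk1, Plk4 and Aurkb). In this band a probe set whose brighter signal was within 2-fold of the floor could not be 2-fold apart. The median brighter signal was 60 for all usable probe sets, itself within 2-fold of the floor, and 70.6 for members. The floor therefore lowered both shares, by amounts that can differ, and no conclusion is drawn from comparing them. For all usable probe sets and members with a brighter signal between 100 and 300 or above, the floor set no such limit. Between 100 and 300 the share was 3.26%, against 1 of 17 members (Gadd45a). At 300 and above it was 0.608%, or 10 of 1644 probe sets, against 1 of 11 members (Stag2). Stag2 is therefore the only member that differed 2-fold at a signal where few probe sets did. It was named by full symbol on a list drawn up with earlier results of these data known.

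The targeted gene was measured by 1 probe set, with a Dusp2 signal of 76.8 in Pac1-/- cells and 333 in wild-type cells (23.1% of the wild-type signal, log2 ratio −2.12). The labels do not say whether its probes lie inside the deletion. The macrophage label was borne out by its markers, with Cd14 at 8581 against 7270, Lyz2 at 5769 against 5165 and Adgre1 at 364 against 350.1 (knockout against wild type throughout). Of its 14 usable probe sets 11 were higher in the knockout and 3 lower, and the lowest ratios were those of the scavenger receptor gene Msr1 (1365.5 against 2171, −0.67, and 240 against 296, −0.30). Of the T and NK cell markers, 7 of 8 probe sets were below the floor on both arrays, all those of Cd3d, Cd3e and Cd3g among them, and Cd4 was at 32.8 against 74.5. B cell markers had 7 of 9 probe sets usable, with Cd79a higher (100.2 against 20.7) and Ms4a1 lower on both its probe sets (52.2 against 87.4 and 39.2 against 61.8). Stromal and mesothelial markers had 8 of 12 probe sets usable and a summed signal of 1306 against 1513, with 3 ratios above 0 (Dcn, 318 against 247, Lum, 46.9 against 19.6, and Col1a2, 246 against 232) and 5 below, the lowest that of Acta2 (52.2 against 133). Mast cell and eosinophil markers had 4 of 11 usable and a summed signal of 638 against 402. All 4 ratios were above 0, with a median of 0.72. They were those of Prg2 (100.1 against 16), Tpsb2 (192 against 116 and 79.7 against 48.8) and Cma1 (206 against 188). Erythroid and platelet markers had 2 of 4 usable, Hba-a1 at 12.8 against 78 and Alas2 at 37.3 against 4.1. The summed signals of the other lists were 59642 against 53760 (macrophage), 579 against 556 (B cell), 126 against 147 (T and NK cell), 1419 against 1498 (neutrophil) and 57.7 against 93.2 (erythroid and platelet). The actin control, a check of RNA quality, was at 12988 against 10543 for its 3′ and at 5359.5 against 4151 for its 5′ probe set. The cells that carry the dim mitotic signals below were not identified, and the part of such other cells in them was not tested. With bulk RNA, fewer cells of a type and less RNA per cell cannot be told apart.

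Promoter sequences are shown for Gadd45a, Plk1 and Plk4, which were 2-fold lower, and for Gadd45b, as the nearly equal relative of Gadd45a. Each is the 250 bases before the gene's start in RefSeq, build GRCm38.p6, written 5′ to 3′ on the gene's strand. The positions are chr6:67037408-67037657 (minus strand) for Gadd45a, chr10:80929841-80930090 (plus) for Gadd45b, chr7:122159185-122159434 (plus) for Plk1 and chr3:40799701-40799950 (plus) for Plk4. Capitals mark matches on either strand to CCAAT, to TATAAA, to TTTGAA or to an E2F sequence, and Plk4 held none in this stretch.
Gadd45a: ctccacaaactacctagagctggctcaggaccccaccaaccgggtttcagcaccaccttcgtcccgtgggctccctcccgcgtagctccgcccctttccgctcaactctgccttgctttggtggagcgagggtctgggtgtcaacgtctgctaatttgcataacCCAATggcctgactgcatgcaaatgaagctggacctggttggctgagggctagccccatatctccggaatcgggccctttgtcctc
Gadd45b: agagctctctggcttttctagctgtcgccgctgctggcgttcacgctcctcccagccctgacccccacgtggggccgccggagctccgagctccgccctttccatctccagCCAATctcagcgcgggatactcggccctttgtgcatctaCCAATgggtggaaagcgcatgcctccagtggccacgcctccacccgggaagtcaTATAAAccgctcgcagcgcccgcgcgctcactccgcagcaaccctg
Plk1: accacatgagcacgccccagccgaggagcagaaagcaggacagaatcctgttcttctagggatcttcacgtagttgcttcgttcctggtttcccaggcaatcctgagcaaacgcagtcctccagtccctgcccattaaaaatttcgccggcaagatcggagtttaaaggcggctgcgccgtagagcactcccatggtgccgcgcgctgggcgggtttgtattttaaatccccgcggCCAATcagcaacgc
Plk4: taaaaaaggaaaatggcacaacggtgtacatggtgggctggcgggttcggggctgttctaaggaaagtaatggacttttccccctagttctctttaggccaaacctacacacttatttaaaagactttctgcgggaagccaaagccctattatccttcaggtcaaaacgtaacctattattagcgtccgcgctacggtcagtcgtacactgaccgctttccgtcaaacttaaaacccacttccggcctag

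The motifs were searched on both strands in windows of 300 bases, from 250 before to 50 after the start, which RefSeq's table held for 53 of the 65 genes (60 windows). Aurkb and Stag2 are among the 12 genes without a window. TTTGAA, the letters of the cell cycle homology region that represses mitotic genes outside division, was in 4 of 7 windows of mitotic members, in 13 of 60 windows of all members (21.7%) and in 17.9% of all 32851 windows. In Plk1 it lay 31 to 36 bases after the start, in Cdc20 18 to 13 bases before it and in Mki67 at 116 to 111 and 98 to 93 bases before it. CCAAT, the letters bound by NF-Y, was in 41 of 60 member windows (68.3%) against 37.4% of all windows. Any of the E2F letters TTTCCCGC, TTTGGCGC, TTTCGCGC and TTTGCCGC was in 9 of 60 member windows (15%) against 2.26%, and in 4 of 11 windows of replication genes. TTTCGCGC and TTTGGCGC can overlap on opposite strands, as they did in Mcm5 and Mcm6, and a window was counted once. TATAAA was in 3 of 60 member windows (5%) against 13.6%, and all 3 belonged to the 4 growth arrest genes. Gadd45b, Gadd45g and Btg1 held it and the Gadd45a window did not. These matches describe letters in a window and not bound sites.

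The growth arrest group was bright, and Gadd45a stood apart from its relatives. Gadd45a, which encodes a small protein that binds PCNA and stress kinases, had a signal of 24.8 on the knockout array, below the floor, and 119 on the wild-type array. That is a log2 ratio of −1.71 with the floor, from its only probe set (Entrez gene 13197). Gadd45b, an NF-kB target that is induced by inflammatory signals, was at 823 against 810.4 (0.02). Gadd45g, the third member of the family, was at 254 against 235 (0.11). Btg1, an antiproliferative gene of quiescent cells, was at 765 against 870.5 (−0.19). So 3 of the 4 genes differed by less than 1.5-fold, with 2 ratios above 0 and 2 below and a group median of −0.08. With the arrays scaled to the same median all 4 ratios were below 0. The Gadd45a ratio lay between −1.77 and −1.71 with every scaling tried and was −2.27 with the floor at the 25th percentile of all signals, because its knockout signal was itself under the floor.

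The mitotic group held 4 of the 5 probe sets that were 2-fold apart. They were 4 of its 8 usable ones, against 2.29% of all usable probe sets. Of the 8, 7 had ratios below 0, against 2811 of all 5898 usable probe sets. Their median log2 ratio was −0.72, and this split was the same under every scaling tried. The median moved to −0.56 with the floor at the 25th percentile, −0.54 without probe sets of possible cross-hybridisation and −0.33 with no floor (3 above and 10 below 0). The 7 lower probe sets include both of Stag2 and that of Plk2, a gene with little role in mitosis. Counted by gene, 6 of 7 ratios were below 0. Plk1, the kinase that drives mitotic entry and spindle assembly, was at 39 against 95.1 (Entrez gene 18817, log2 ratio −1.29) on a probe set marked by its suffix as open to cross-hybridisation. The other Plk1 probe set lay under the floor in both genotypes (32.4 against 13.9), and with the floor at the 25th percentile it was 2-fold higher (1.22), opposite to the brighter one. Plk4, the kinase that starts centriole duplication, was at 42.1 against 89.5 (Entrez gene 20873, −1.09), with a further probe set under the floor (5.2 against 4.5). Both kinases therefore rest on dim signals, with the knockout value just above the floor. Mki67, the proliferation marker, had a wild-type signal of 68.2 and a knockout signal below the floor (30.2), at least 1.87-fold lower. Cdc20, the activator of the anaphase-promoting complex, was at 63.3 against 86.8 (−0.46).

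Aurkb went the other way. Its only probe set read 97.9 in Pac1-/- cells and 15.5, under the floor, in wild-type cells, a log2 ratio of 1.43 (Entrez gene 20877). The related Aurka, a kinase of spindle poles, was below the floor on both arrays (18.2 against 27.1), as were both probe sets of the checkpoint kinase gene Bub1 (1.2 against 2.9 and 1.7 against 2.3). Mitotic kinases that usually appear together in dividing cells thus did not share a direction on these arrays. Plk2, a stress-induced polo-like kinase with little role in mitosis, was the one bright gene of the family, at 4861 against 5702 (−0.23).

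**Figure D2:**
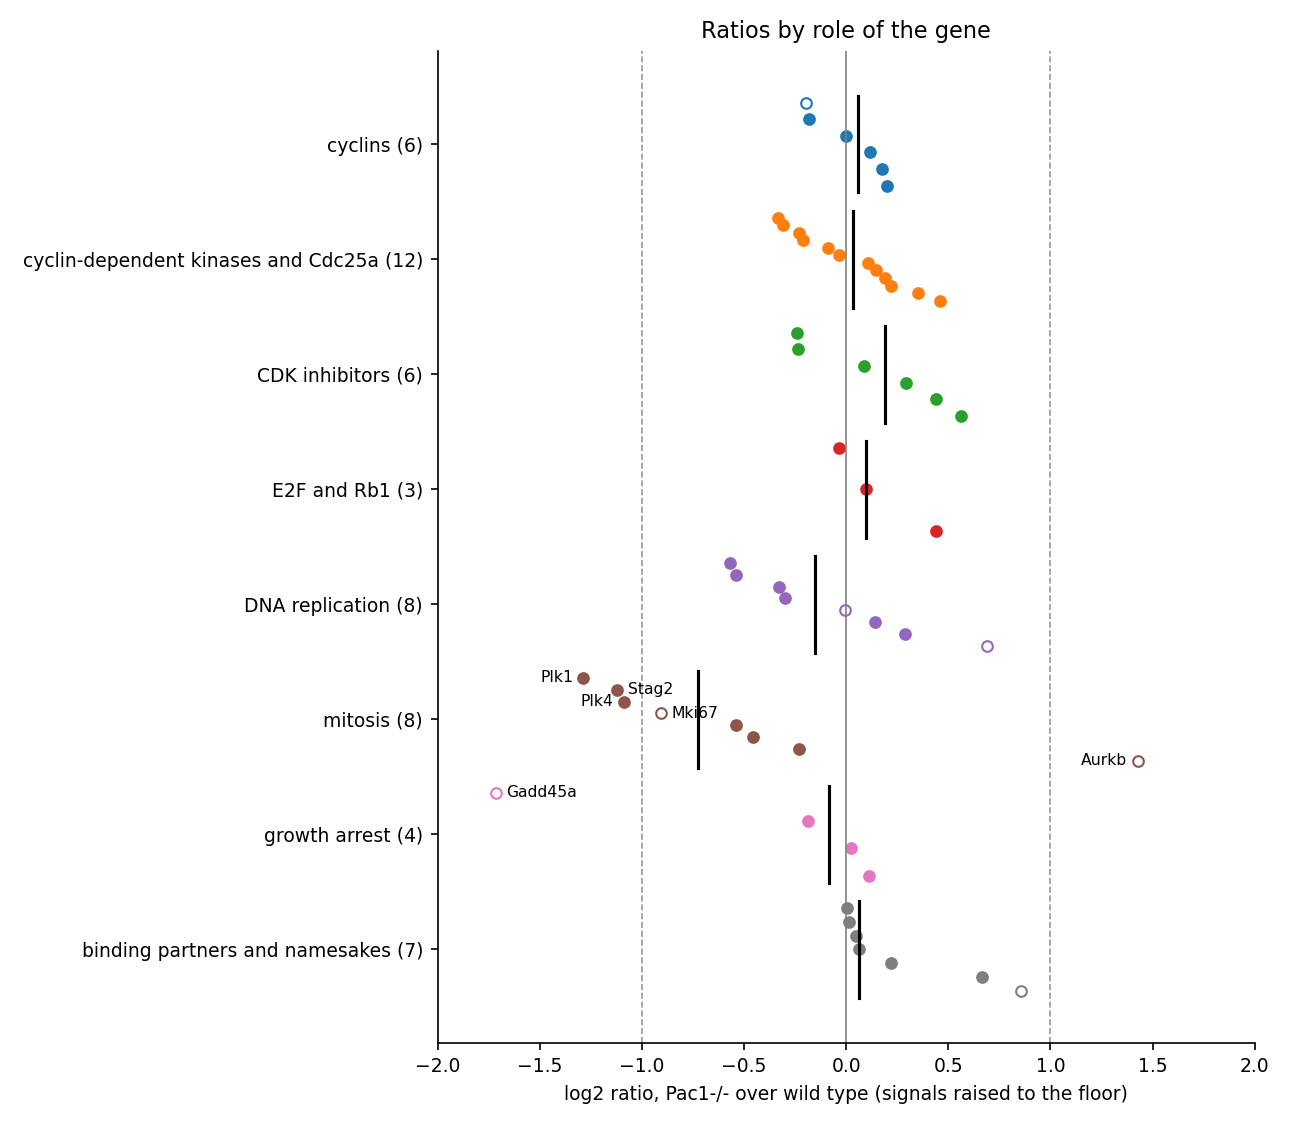
Log2 ratio of Pac1-/- over wild type for the 54 usable probe sets, 1 row per role with its number of probe sets. Filled points had both signals above the floor and open points 1 signal below it, black bars are group medians and dashed lines mark 2-fold. The mitotic points lie mostly left of 0, with a median of −0.72, and the other groups have medians between −0.15 and 0.19.

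Stag2 had the brightest signals of the 2-fold probe sets. STAG2 is a subunit of cohesin, the ring that holds sister chromatids together and that also shapes chromatin loops in non-dividing cells. Its brighter probe set was at 299.6 against 651 (Entrez gene 20843, −1.12), and its dimmer one at 71.9 against 105 (−0.54). All 4 signals were above the floor and both probe sets were lower in the knockout, by different amounts. Their mean ratio was −0.83, or 1.78-fold, so Stag2 taken as a gene was under 2-fold. Among the other cohesin and condensin genes, 6 of 13 probe sets were usable, and all 6 had ratios below 0 with a median of −0.41. None was 2-fold apart, which Stag1 and Smc2 were too dim to be with the floor used, and 4 of the 6 were under 1.5-fold. The genes of this list are named here because their values had been seen. Rad21, the cohesin subunit that separase cuts, was at 568 against 780.5 (−0.46). Nipbl, which loads cohesin, was at 60.3 against 95.6 (−0.66). Stag1, which can take the place of Stag2 in the ring, had a wild-type signal of 62.8 and a knockout signal just below the floor (−0.79). The condensin genes Smc4 (94.7 against 122, −0.37) and Smc2 (41.0 against 43, −0.07) and the securin gene Pttg1 (996 against 1146, −0.20) completed the list. Over all usable probe sets 2811 of 5898 ratios were below 0. The list stayed below 0 in all 6 under the other scalings, and with no floor 10 of its 13 probe sets were below 0.

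The replication genes, targets of E2F, had 5 of 8 usable ratios below 0 and a median of −0.15, and none was 2-fold apart. Mcm4, Mcm5, Mcm7, Mcm10 and Rrm1 could not be, since their brighter signals were within 2-fold of the floor. Pcna, the sliding clamp of DNA polymerases, was the bright one, at 678 against 987 (−0.54). Among the MCM helicase genes the ratios spread both ways. Mcm3 was at 71.3 against 106 (−0.57) and Mcm5 at 42.6 against 52.4 (−0.30). Mcm2 was at 76.2 against 69 (0.14) and Mcm4 at 60.8 against 49.8 (0.29), while Mcm7 was at 58.6 against 29.8, the latter under the floor (at least 1.61-fold higher). Subunits of 1 helicase complex thus had ratios of both signs, all at dim signals. Rrm1, the large subunit of ribonucleotide reductase, was at 48.5 against 60.9 (−0.33), and Mcm10 was at the floor (28.2 against 36.5). Mcm6, Rrm2 and the mitotic topoisomerase gene Top2a were below the floor on both arrays, as were a second Mcm3 and a second Rrm1 probe set.

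Cyclins were the most even group, with all 6 usable ratios between −0.20 and 0.20. Ccna2, the cyclin of S phase, was at 175 against 155 (0.18), and Ccnb2, a mitotic cyclin, was at 171 against 194 (−0.18). Ccne1, which acts at the start of replication, was at 237 on both arrays. Ccnd2, a D-type cyclin that links growth factors to the CDKs, was at 87.4 against 76 (0.20). Ccnd1 had probe sets of opposite sign, at 92.2 against 85 (0.12) and at 30.6 against 41.7 (−0.20, with the knockout signal below the floor). Ccna1 and Ccne2 were below the floor on both arrays.

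The CDKs and Cdc25a, with 12 usable probe sets, had 6 ratios above and 6 below 0 and a median of 0.04, or 5 above and 7 below with the arrays scaled to the same median. Cdk1, the kinase of mitotic entry, was at 70 against 63.2 (0.15), and Cdk2, the partner of cyclins E and A, was at 88.6 against 90.9 (−0.04). The highest ratio was that of the cyclin D partner Cdk4 (81.7 against 59.5, 0.46), with a dimmer probe set under the floor. Cdk9, which releases paused RNA polymerase and does not act in the cell cycle proper, was at 642 against 503 (0.35). Cdk8, a kinase of the Mediator complex, was at 217 against 251 (−0.21). Cdk11b was lower on both its probe sets (214.5 against 252, −0.23, and 69.5 against 87.5, −0.33), which was the lowest ratio of the group. Cdk16 was at 135 against 167 (−0.31), Cdk18 at 145 against 154 (−0.09), Cdk14 at 107 against 91.8 (0.22) and Cdk5 at 137 against 127 (0.11). The phosphatase gene Cdc25a, which activates CDKs, was at 99.7 against 87.4 (0.19). Cdk7 and the second probe sets of Cdk2, Cdk14 and Cdc25a were below the floor.

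The CDK inhibitors had 4 of 6 usable ratios above 0 and a median of 0.19, but 3 of 6 with the arrays scaled to the same median. Cdkn1a, the p53 target, was measured by 2 probe sets of opposite sign, at 914 against 747 (0.29) and at 686 against 808.5 (−0.24). The direction of Cdkn1a is therefore undecided, with both probe sets well above the floor. Cdkn1b, an inhibitor of quiescent cells, was at 334.5 against 395 (−0.24), with a dimmer probe set under the floor. Cdkn1c was at 454 against 335 (0.44). Of the INK4 inhibitors, which act on the cyclin D kinases, Cdkn2c had the highest ratio (146 against 98.9, 0.56, from a probe set with a cross-hybridisation suffix) and Cdkn2d was at 201 against 189 (0.09). Cdkn2a, Cdkn2b and the phosphatase gene Cdkn3 were below the floor on both arrays.

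**Figure D3:**
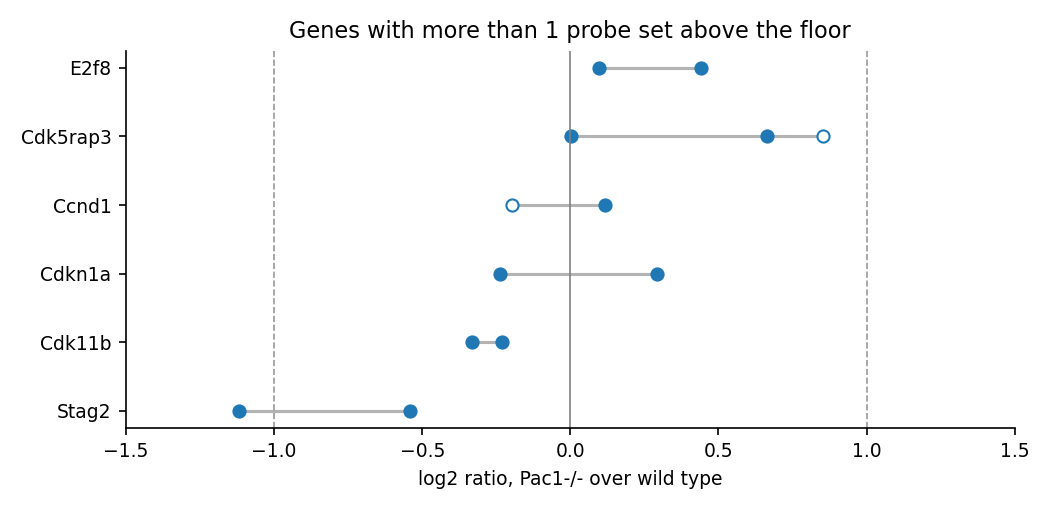
Log2 ratio of Pac1-/- over wild type for each usable probe set of the 6 genes that had more than 1, with a grey line joining the probe sets of a gene and dashed lines at 2-fold. Open points had 1 signal below the floor. The Stag2 probe sets are both left of 0, at −1.12 and −0.54, while those of Cdkn1a and Ccnd1 fall on both sides of 0.

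Probe sets of 1 gene give the nearest measure of error that these arrays allow, since they read the same RNA. Among the 6 genes with several usable probe sets, the ratios of a gene differed by between 0.10 (Cdk11b) and 0.85 (Cdk5rap3) on the log2 scale, with a median of 0.43, and had opposite signs for 2 genes. Over all 666 such genes on the array the median range was 0.35, the 90th percentile 0.87, and 328 had opposite signs. Most ratios given above for cyclins, CDKs and inhibitors are thus smaller than the usual difference between probe sets of a gene. The median of the cohesin and condensin list, −0.41, is near that difference in size. The difference is between single probe sets, however, so the error of a median over 6 probe sets was not measured. This spread covers probe design and noise within these arrays. It leaves out differences between mice and errors of RNA preparation or amplification, which all probe sets of an array share.

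The E2F and Rb1 group had 3 usable probe sets, all under 1.5-fold. E2f5, a repressive E2F, was at 157 against 161 (−0.04). E2f8 was at 63.2 against 46.6 (0.44) and at 51.6 against 48.2 (0.10), from probe sets whose suffixes mark possible cross-hybridisation. E2f1, E2f3 and Rb1 itself were below the floor on both arrays.

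Of the binding partners and namesakes, 7 probe sets were usable and all 7 had ratios above 0, with a median of 0.06. With the arrays scaled to the same median 3 were above and 4 below 0, and after quantile normalization or loess 5 were above and 2 below. Cdk5rap3, a CDK5-binding protein, had the widest spread, at 65.8 against 28.6, which is under the floor (at least 1.81-fold higher), at 75.5 against 47.7 (0.66) and at 47.8 against 47.7 (near 0). The probe sets with higher ratios have suffixes of possible cross-hybridisation and were designed from the same transcript record. Cdk2ap1, a CDK2-associated protein, was at 187 against 160.3 (0.22), Ccndbp1 at 354 against 339 (0.06), Cdk2ap2 at 71.1 against 68.8 (0.05) and Mcm3ap at 47.6 against 47.1 (0.02). Ccnb1ip1, Cdk5r1, Cdk5r2 and Cdkn2aipnl were below the floor on both arrays.

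Other cell cycle genes, grouped by function, added 132 probe sets for 106 genes, of which 82 were usable. Among these 45 ratios were above and 37 below 0, the median was 0.06, and 2 were 2-fold higher and 0 lower. That is 2.44%, close to the 2.29% of all usable probe sets. Both of the 2-fold probe sets belonged to DNA synthesis genes. Dut, which clears dUTP, was at 90.2 against 10.8, the latter under the floor (at least 2.48-fold higher), and the clamp loader gene Rfc5 was at 107 against 49.1 (1.13) on 1 probe set and at 72.8 against 76.2 (−0.07) on another. The lowest ratio of that list was Lig1, the replicative DNA ligase, at 14.6 against 62.9 (−0.79, the former under the floor), with −0.28 on another probe set. In all, DNA synthesis genes had 10 of 15 ratios above 0 and a median of 0.09, or 7 of 15 and −0.03 with the arrays scaled to the same median.

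Origin licensing and firing genes had 6 of 7 ratios above 0 and a median of 0.31, while the MCM genes loaded by them went both ways. Their highest and lowest values were Cdt1 on 1 probe set (129 against 70.8, 0.86, but 0.06 on its other) and Orc6 (55.3 against 55.4, near 0). With the arrays scaled to the same median 5 of 7 were above 0. Spindle, kinetochore and cytokinesis genes, the nearest relatives in role of Plk1 and Aurkb, had 4 of 8 ratios above 0 and a median of 0.09 (−0.03 with the arrays scaled to the same median). Their extremes were Cenpa, the centromeric histone gene (58.1 against 83.3, −0.52), and the checkpoint gene Mad2l1 (167 against 141, 0.24). Birc5, the partner of Aurkb in the chromosomal passenger complex, was at 41.8 against 42.7 (−0.03), and a further partner, Incenp, was at 58.3 against 50.1 (0.22) and at 47.4 against 49.7 (−0.07). The lower mitotic signals of Plk1, Plk4 and Mki67 were thus not matched by a common direction among the usable probe sets of this list. Its other 11 of 19 probe sets were below the floor on both arrays and give no direction.

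Genes of checkpoints and CDK control had 11 of 17 ratios above 0 (8 of 16 with the arrays scaled to the same median) and a median of 0.11, between the cyclin C gene Ccnc (77.3 against 109, −0.50) and the checkpoint kinase gene Chek2 (73.3 against 49.1, 0.58). For the anaphase-promoting complex 4 of 10 ratios exceeded 0, with a median of −0.06, between Cdc26 (139 against 178, −0.36) and Anapc4 (170 against 141.5, 0.26). Rb and E2F partners had a median of 0.09 over 7 probe sets (−0.03 under that scaling), between Lin9 (66.2 against 87.3, −0.40) and the histone-binding gene Rbbp4 (501 against 439, 0.19). Other growth arrest and antiproliferative genes split evenly, with 6 of 12 ratios above 0 and a median of 0.04 (−0.07 under that scaling). Their lowest was Btg2, a relative of Btg1 and a p53 target, at 312 against 477.5 (−0.61). Their highest was the stress gene Ddit3 (72.9 against 42.8, 0.77).

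**Figure D4:**
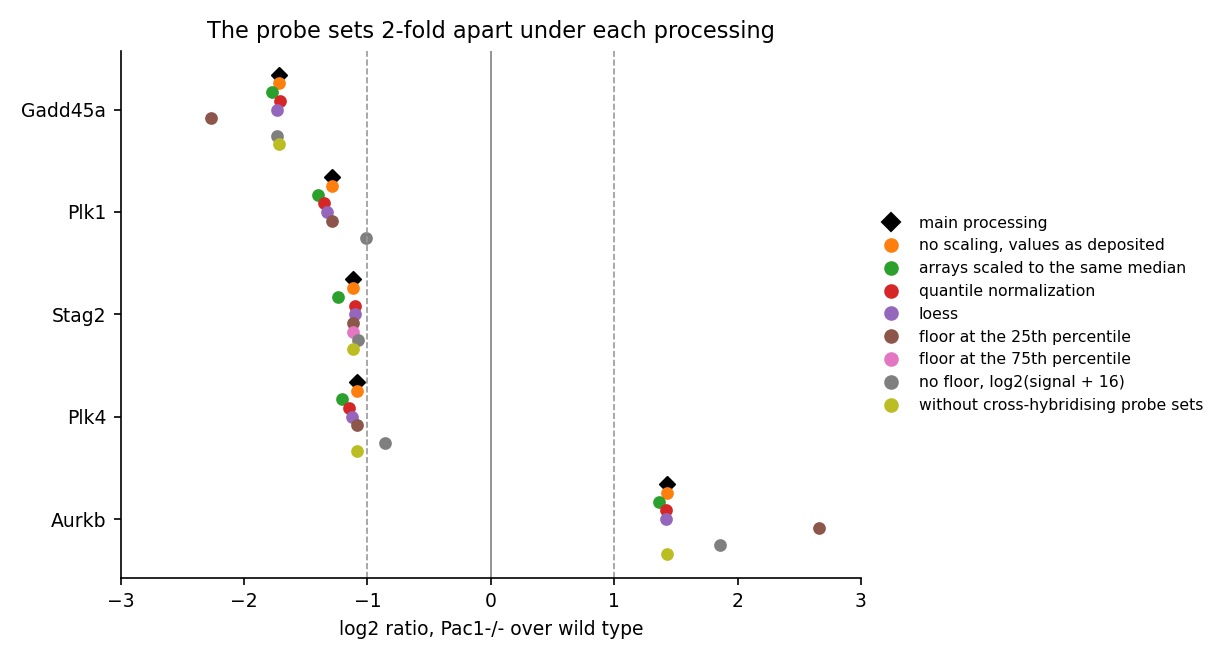
Log2 ratio of Pac1-/- over wild type for the 5 probe sets that were 2-fold apart, under the main processing (black diamonds) and each alternative that gave that probe set a value (coloured circles), with dashed lines at 2-fold. Every point keeps its side of 0, which a change of floor could not alter. Plk4 passes inside 2-fold with no floor (−0.86), and Aurkb moves from 1.43 to 2.66 with the lower floor.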

How the data were processed

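Measured were, on 1 Affymetrix array each, LPS-treated Pac1-/- and wild-type macrophages. The deposited intensities are MAS5 signals per probe set on a linear scale, a method named in the submitters' processing notes without a version. No signal was below 0 and the trimmed means of the deposited values were equal (150.0 with 2% trimmed at each end). Per the labels' protocols, 500 to 1000 ng of RNA was amplified from a poly(T) primer, which weights 3′ ends.

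Probe sets were named through the platform's annotation table, in which 363 had several symbols and 1993 were not listed. Entrez identifiers matched to a RefSeq gene table (GRCm38.p6) changed 0 symbols. The 66 control probe sets were left out. The ratio was computed with Python 3.11.15, numpy 2.4.6 and pandas 2.3.3 after scaling to equal trimmed means, with the floor given above, and the script was tested on simulated data. No test between genotypes was possible. The number of arrays limits the precision.

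Named were Dusp2, every member 2-fold apart, and the highest, lowest and brightest of each role group with all their probe sets. The other usable members are given by value, and for the other lists those 2-fold apart and the extremes, with cohesin genes, Birc5 and Incenp added after their values were seen. The members and lists were chosen with earlier results of these data known. Alternatives changed the scaling, floor, size rule, probe sets or level of counting.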

Additional observations from a re-analysis of the deposited data

How the results depend on the processing

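Each of the 5 probe sets that were 2-fold apart kept their direction under every alternative that gave them a value. This is no separate check of direction. A change of floor cannot reverse the order of 2 signals, and the scalings moved these ratios by far less than 2-fold. With a floor at the 25th percentile 9 member probe sets were 2-fold apart (3 higher and 6 lower), and 10 of 114 for the other cell cycle genes (8.77%), against 12.2% of all. Added were Mki67 and Cdk5r2, lower, and a second Plk1 and 1 Cdk5rap3 probe set, higher. With the floor at the 75th percentile only 24 members stayed above it. Of these 1 was 2-fold apart (4.17%, 0 higher and 1 lower, Stag2) and 0 of 30 for the other genes, against 0.373% of all. At 1.5-fold in place of 2-fold, 9 of 54 members (16.7%, 4 higher) and 10 of 82 for the other genes (12.2%) passed, against 12.4% of all. As a mean over a gene's probe sets, 4 of 47 members (8.51%) were 2-fold apart, without Stag2 (−0.83). So was 1 of 75 for the other genes (1.33%), against 2.19% of all. With no floor and log2(signal + 16), Plk4 had a ratio of −0.86. Without probe sets of possible cross-hybridisation Plk1 had no value. Scaling the arrays to the same median moved the median of all usable probe sets from 0.02 to −0.10 and that of the members to −0.10, with 18 above and 36 below 0 against 28 and 26. It also turned the medians of the cyclins (−0.06), of the CDKs (−0.08), of the E2F group (−0.02), of the namesakes and of the other cell cycle genes (−0.06) below 0. No replicate could be left out. No paired analysis was possible because there was 1 array per genotype. Dim signals limit Plk1, Plk4, Aurkb and Mki67, and detection calls were not used here.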
